A study of Homo sapiens with 12 samples.

Results

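NEAT1 and MALAT1 are neighbouring genes for long non-coding RNAs that stay in the nucleus, and both were followed here by their gene symbols, as 2 of the 60583 genes counted. The data are TT-seq libraries, in which RNA made during a short pulse of 4-thiouridine is biotinylated, captured and sequenced, so that the counts follow nascent RNA rather than the standing pool. Human osteosarcoma cells of the established line U2OS were compared with U2OS-AsiSI, a derivative that carries AsiSI-ER, a restriction enzyme fused to a hormone-binding domain that enters the nucleus and cuts DNA once 4-hydroxytamoxifen (OHT) is given. Each line received control siRNA (siCtrl) or siRNA that targets INTS11 (siINTS11), and cells were collected 48 h later, with 3 libraries in each of the 4 groups. All U2OS-AsiSI libraries were labelled as given OHT for 1 h and the labels give no treatment for U2OS, so the line, the enzyme and OHT cannot be told apart in a comparison between lines. The labels do not say whether replicates were separate cultures, so p-values measure only the spread between these libraries.

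NEAT1 RNA is the scaffold of paraspeckles, nuclear bodies built on its long isoform together with RNA-binding proteins such as SFPQ and NONO. Its short isoform is made by cleavage and polyadenylation early in the gene, whereas the long isoform ends, like MALAT1, at a tRNA-like fold that RNase P cuts, leaving a U-rich triple helix in place of a poly(A) tail. MALAT1 RNA accumulates at nuclear speckles, which hold splicing factors. INTS11 is the endonuclease of Integrator, the complex that cleaves nascent RNA of many RNA polymerase II genes, and NEAT1 isoform balance has been reported to depend on Integrator.

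Both genes lie on the plus strand of chromosome 11 (hg38). NEAT1 (ENSG00000245532) runs from 65422774 to 65445540, a span of 22767 bases, and MALAT1 (ENSG00000251562) from 65497688 to 65506516, a span of 8829 bases, with 52.1 kb between them. Both have the same coordinates in GENCODE release 29, where each is a lincRNA, NEAT1 with 8 transcripts and MALAT1 with 17. Of the NEAT1 transcripts, 7 end within the first 4 kb, and the long transcript ends 19027 bases past the last of them. The counts cover the whole span as 1 value a gene, so short and long NEAT1 cannot be told apart in any value below. Other genes are listed inside the spans on the same strand, 4 in NEAT1 and 2 in MALAT1, and they had 0 reads in all 12 libraries. AP000769.2, on the minus strand inside MALAT1, had 248 reads over the 12 libraries. How reads over overlapping genes were counted is not given, so the 0 reads do not show that those genes were silent.

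The ends of the RNAs are shown because they set the isoforms and carry what the genes share. The first pair gives the 160 bases before the tRNA-like part of each gene, with runs of at least 8 bases found in both windows in capitals. The third gives the last 120 bases of the short NEAT1 transcript that reaches farthest, with AATAAA, the polyadenylation signal, and TGTA, the core of the CPSF6-NUDT21 binding site, in capitals. All are plus-strand sequence of GENCODE release 29 transcripts on GRCh38.
NEAT1 long end, chr11:65445381-65445540: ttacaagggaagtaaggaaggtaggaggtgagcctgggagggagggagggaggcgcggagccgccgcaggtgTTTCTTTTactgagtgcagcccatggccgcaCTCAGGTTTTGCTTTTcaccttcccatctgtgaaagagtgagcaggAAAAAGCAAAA
MALAT1 end, chr11:65505957-65506116: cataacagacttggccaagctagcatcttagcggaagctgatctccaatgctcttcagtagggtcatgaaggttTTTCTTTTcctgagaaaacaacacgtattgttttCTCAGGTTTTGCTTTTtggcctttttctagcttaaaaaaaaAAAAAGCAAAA
NEAT1 short end, chr11:65426394-65426513: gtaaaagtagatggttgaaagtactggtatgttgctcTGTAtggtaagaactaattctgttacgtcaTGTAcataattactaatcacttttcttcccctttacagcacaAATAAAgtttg

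The long ends shared 35 bases in such runs, made up of 2 U-rich stretches and an A-rich tail that pair in the triple helix. The longest shared run, of 16 bases, was found in 2 of 206694 GENCODE transcripts, 1 from each gene. AATAAA was present in the last 120 bases of 36.2% of 14365 lincRNA transcripts, and at least 2 matches to TGTA on the transcript strand in 11.97%. RefSeq's promoter table for GRCh38 (250 bases before to 50 after a start) held 2 windows for MALAT1: the upstream one had 5 matches to GGGCGG on either strand, a motif in 45.0% of 35116 windows, and the other had 1 match to TATAAA, in 11.5%. CCAAT and TGACTCA had 0 matches in both.

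Library totals ran from 20704611 to 38065726 counts, a 1.84-fold range, and the second U2OS-AsiSI siINTS11 library was the shallowest. INTS11 itself was lower in the U2OS siINTS11 libraries (log2 fold change -0.42, SE 0.09, edgeR adjusted p = 6.08e-05) but did not pass in U2OS-AsiSI (-0.13, SE 0.08, edgeR adjusted p = 0.172). The counts do not show whether the protein was depleted, and the groups are called by their labels. Markers of mesenchymal and osteosarcoma cells, 5 of 7 with a mean of at least 100 counts, summed to 761 to 824 CPM (counts scaled to library size) with siCtrl and 651 to 686 CPM with siINTS11 in U2OS. In U2OS-AsiSI they summed to 723 to 747 CPM and 614 to 680 CPM, so the siINTS11 libraries lay lower in both lines, with COL1A2 and TWIST1 near 0 (means of 7.58 and 5.33 counts). Epithelial markers, 5 of 5 detected, summed to 85.4 to 93.1 CPM with siCtrl and 119 to 129 CPM with siINTS11 in U2OS. In U2OS-AsiSI they summed to 93.7 to 108 CPM and 150 to 166 CPM, so they were higher with siINTS11 in both lines; their part in the results was not tested. The endothelial markers PECAM1 and CDH5 summed to 1.76 to 2.09 CPM with siCtrl and 5.73 to 6.22 CPM with siINTS11 in U2OS, and to 1.66 to 2.16 and 6.72 to 7.53 CPM in U2OS-AsiSI. Blood markers stayed under 0.3 CPM in sum, with CD3E and HBB under 3 counts on average.

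Both RNAs were among the genes densest in nascent reads. NEAT1 averaged 0.142 raw reads per base (count divided by gene length) over the 12 libraries, and 630 of 39926 genes over 1 kb (1.58%) were denser. MALAT1 averaged 0.389 reads per base, with 52 genes (0.130%) above it. Within groups, log count rose by 0.79 for NEAT1 and 0.59 for MALAT1 per unit of log library total, where 1 would be in proportion. The same slope was 0.44 to 0.58 for the 5 genes nearest MALAT1 in density, and 0.67 to 1.07 for the 5 nearest NEAT1, with ATP1B1 the highest. A slope under 1 would mean that differences in depth were compressed in the count. The slopes were computed without an error, so whether they depart from 1 was not tested, nor was a cause.

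NEAT1 had 3082, 3964 and 3522 reads with siCtrl and 3409, 3587 and 3714 reads with siINTS11 in U2OS. In U2OS-AsiSI it had 3543, 3414 and 3065 reads with siCtrl and 2661, 2198 and 2663 with siINTS11. In these bulk samples, fewer cells making an RNA and less RNA per cell cannot be told apart. The groups overlapped in U2OS, while all siINTS11 libraries of U2OS-AsiSI lay below every other library of the series. Those libraries also had the lowest totals. Divided by library total, NEAT1 in U2OS-AsiSI was 113, 104 and 108 CPM with siCtrl and 100, 106 and 102 CPM with siINTS11, which overlap. Per base, the raw counts were 0.135, 0.174 and 0.155 against 0.150, 0.158 and 0.163 in U2OS, and 0.156, 0.150 and 0.135 against 0.117, 0.0965 and 0.117 in U2OS-AsiSI. The group means were 0.155 ± 0.0194 and 0.157 ± 0.00673 reads per base in U2OS, then 0.147 ± 0.0109 and 0.110 ± 0.0118 in U2OS-AsiSI (SD, n = 3 each). In rising order the groups were U2OS-AsiSI siINTS11, U2OS-AsiSI siCtrl, U2OS siCtrl and U2OS siINTS11, and the upper 3 did not differ beyond their spread.

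MALAT1 had 2910, 3499 and 3032 reads with siCtrl and 4025, 3898 and 3916 with siINTS11 in U2OS. In U2OS-AsiSI it had 3105, 3174 and 2911 reads with siCtrl and 3733, 3313 and 3706 with siINTS11. In both lines every siINTS11 library lay above every siCtrl library of that line, although the totals of the U2OS-AsiSI siINTS11 libraries were the lowest. Per base, that was 0.330, 0.396 and 0.343 against 0.456, 0.442 and 0.444 in U2OS, and 0.352, 0.359 and 0.330 against 0.423, 0.375 and 0.420 in U2OS-AsiSI. The group means were 0.356 ± 0.0352 and 0.447 ± 0.00778 reads per base in U2OS, then 0.347 ± 0.0154 and 0.406 ± 0.0266 in U2OS-AsiSI (SD, n = 3 each). The 2 siCtrl groups did not differ beyond their spread.

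**Figure D1:**
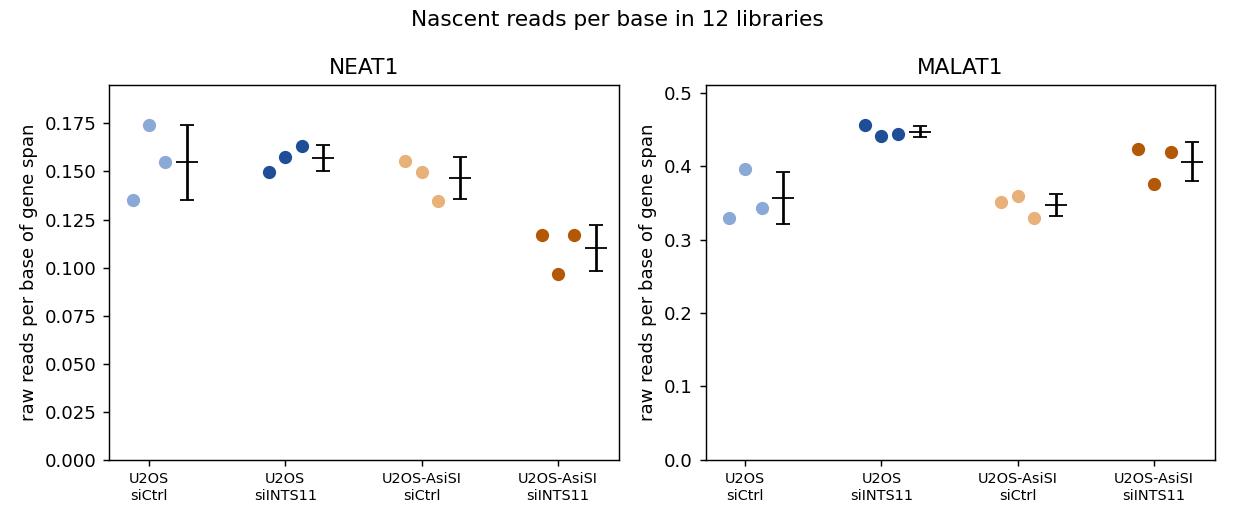
Raw reads per base of gene span (vertical axes, from 0) for NEAT1 and MALAT1 in each of the 12 libraries, grouped by line and siRNA; black bars give the group mean and SD of 3 libraries. NEAT1 is lowest in the U2OS-AsiSI siINTS11 libraries (0.0965 to 0.117), which also had the lowest totals. MALAT1 is higher with siINTS11 than with siCtrl in each line.

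The first comparison set the libraries labelled siINTS11 against siCtrl in each line. In U2OS-AsiSI the genes moved in opposite directions: NEAT1 fell to 0.831-fold and MALAT1 rose to 1.30-fold of siCtrl. In U2OS, MALAT1 rose to 1.18-fold, and NEAT1 stood at 0.953-fold and did not pass the test. These folds are between libraries scaled by TMM, a method that takes most genes as unchanged, and were tested with edgeR's quasi-likelihood test adjusted by Benjamini-Hochberg over all genes tested, at a threshold of 0.05.

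For NEAT1 in U2OS-AsiSI, the scaled level was 120, 107 and 112 CPM with siCtrl and 93.0, 96.8 and 91.2 CPM with siINTS11. The groups did not overlap, and the log2 fold change was -0.27 (SE 0.05, 95% interval -0.36 to -0.17, edgeR adjusted p = 1.5e-05). In U2OS the scaled level was 112, 112 and 124 CPM with siCtrl and 103, 117 and 119 CPM with siINTS11. The groups overlapped, and the log2 fold change was -0.07 (SE 0.05, 95% interval -0.16 to 0.02, edgeR adjusted p = 0.199). The fall rests on the scaling. With library totals alone the change in U2OS-AsiSI was -0.08 (edgeR adjusted p = 0.109) and that in U2OS became 0.13 (edgeR adjusted p = 0.00495), while the median of all genes tested moved from 0.03 to 0.22 in U2OS-AsiSI and from 0.02 to 0.22 in U2OS. NEAT1 stood below the median of all genes under both scalings. A change of scaling shifts all genes nearly alike, so this standing does not bear on whether NEAT1 fell.

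For MALAT1 in U2OS-AsiSI, the scaled level was 105, 99.4 and 106 CPM with siCtrl and 130, 146 and 127 CPM with siINTS11. The log2 fold change was 0.38 (SE 0.05, 95% interval 0.28 to 0.48, edgeR adjusted p = 1e-07). In U2OS it was 106, 98.9 and 107 CPM with siCtrl and 122, 128 and 125 CPM with siINTS11. The log2 fold change was 0.23 (SE 0.04, 95% interval 0.16 to 0.31, edgeR adjusted p = 2.65e-06). The siRNA groups did not overlap in either line, and MALAT1 was higher in 3 of 3 libraries in each.

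These calls stand against a wide background. In U2OS-AsiSI 68% of 20441 genes tested passed, 35.4% higher and 32.6% lower, and in U2OS 66.9% of 20687 passed, 34.5% higher and 32.4% lower. With library totals alone, the share of calls that were higher moved from 52.1% to 72.4% in U2OS-AsiSI and from 51.6% to 74.3% in U2OS. By log2 fold change NEAT1 lay at the 25.9th percentile of all genes in U2OS-AsiSI and at the 41.8th in U2OS, and MALAT1 at the 72.2nd and the 66.1st. Neither gene's change was extreme among all genes.

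Genes of like density gave a closer background. Among 101 genes over 1 kb with 0.3 to 0.5 reads per base, as MALAT1 has, the median log2 fold change in U2OS-AsiSI was 0.24, 89.1% were called higher, and 15 lay above MALAT1. In U2OS the same class had a median of 0.03 and 23.8% called higher, with 10 above MALAT1. Among 1060 genes with 0.1 to 0.2 reads per base, as NEAT1 has, the median was 0.06 in U2OS-AsiSI, where 19.9% were called lower and 56 lay below NEAT1. In U2OS their median was 0.03 and 312 lay below NEAT1. In U2OS-AsiSI the depth of the groups also differed, so density, depth and siRNA moved together there, and the part of depth in the dense classes was not tested.

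**Figure D2:**
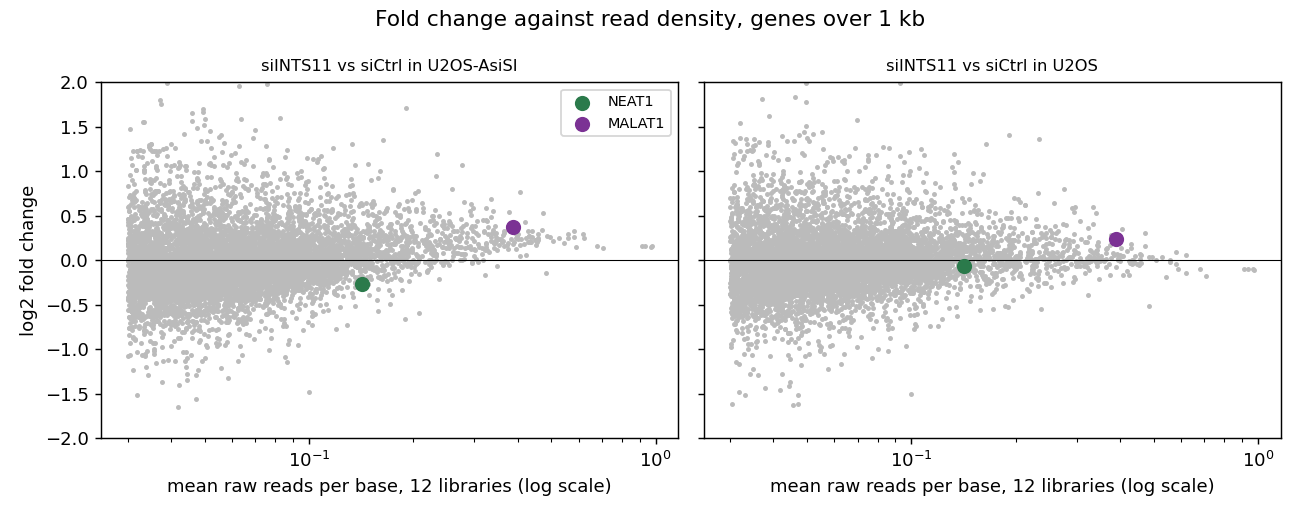
Log2 fold change with siINTS11 (vertical axis) against mean raw reads per base (horizontal, log scale) for 7058 genes over 1 kb with at least 0.03 reads per base, in U2OS-AsiSI (left) and U2OS (right); 9 and 11 genes lie outside the vertical range of 2. In U2OS-AsiSI the dense genes at the right lie above 0, MALAT1 (0.38) among the higher of them and NEAT1 (-0.27) below most genes of its density.

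The genes nearest in density gave the same comparison gene by gene. Near NEAT1 were ATP1B1, a subunit of the sodium pump (log2 fold change 0.25 in U2OS-AsiSI), SNRPA, a protein of the U1 snRNP (0.16), and ITPRIP (0.62), which rose, TMEM69 (-0.17), which fell, and PDAP1 (0.07), which did not pass. In U2OS ATP1B1 (0.19), SNRPA (0.14) and ITPRIP (0.27) rose, and TMEM69 (0.00) and PDAP1 (-0.02) did not pass. Near MALAT1 were the glycolytic enzyme ENO1 (0.21), the splicing factor SRSF3 (0.13), the ribosomal protein gene RPS19 (0.26), the survival factor MCL1 (0.27) and MAT2A (0.24), which makes S-adenosylmethionine, and all 5 rose in U2OS-AsiSI. In U2OS MAT2A rose (0.14), and ENO1 (0.07), SRSF3 (0.00), RPS19 (0.04) and MCL1 (-0.01) did not pass. MALAT1 had the larger value than all 5 in both lines, and NEAT1 the lower value than its 5.

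The ratio of NEAT1 to MALAT1 reads per base within a library does not depend on how libraries are scaled. It may still vary with depth, because the slopes on library total were unequal (0.79 for NEAT1 and 0.59 for MALAT1). The part of depth in the ratio was not tested. In the siCtrl libraries of U2OS the ratio was 0.411, 0.439 and 0.450, and in their siINTS11 counterparts 0.328, 0.357 and 0.368. In U2OS-AsiSI it was 0.443, 0.417 and 0.408 with siCtrl and 0.276, 0.257 and 0.279 with siINTS11. Every siINTS11 library lay below every siCtrl library, and the U2OS-AsiSI siINTS11 libraries, which also had the lowest totals, lay lowest. The group means were 0.434 ± 0.0205, 0.351 ± 0.0203, 0.423 ± 0.0178 and 0.271 ± 0.0118 in that order (SD, n = 3 each).

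The mean log2 ratio was lower with siINTS11 by -0.64 in U2OS-AsiSI and by -0.30 in U2OS (exact two-sided permutation p = 0.1 for each, the smallest that 3 against 3 allows). With labels permuted within each line the difference was -0.47, in the same direction in 6 of 6 siINTS11 libraries (exact two-sided permutation p = 0.005, the smallest of 400 arrangements). Adjusted by Benjamini-Hochberg over the 7 ratio and reads-per-base tests, these exact permutation p-values became 0.117 and 0.0175. Between lines the log2 ratio differed by -0.04 under siCtrl and by -0.37 under siINTS11 (exact permutation p = 0.6 and 0.1). The ratio shows unequal change of the pair, not which of them changed. To allow for possible compression of the counts, the ratio was also taken on density rescaled as -ln(1 - reads per base). This rescaling assumes that each base is counted at most once, and the within-line difference was then -0.57.

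Raw reads per base without any scaling, compared within lines, differed by 0.0748 for MALAT1 (exact two-sided permutation p = 0.005, adjusted 0.0175) and by -0.0173 for NEAT1 (exact two-sided permutation p = 0.1, adjusted 0.117). The MALAT1 difference stood although the siINTS11 libraries of U2OS-AsiSI had fewer reads in all. Divided by library total, the NEAT1 difference was 0.00294 (exact two-sided permutation p = 0.565).

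**Figure D3:**
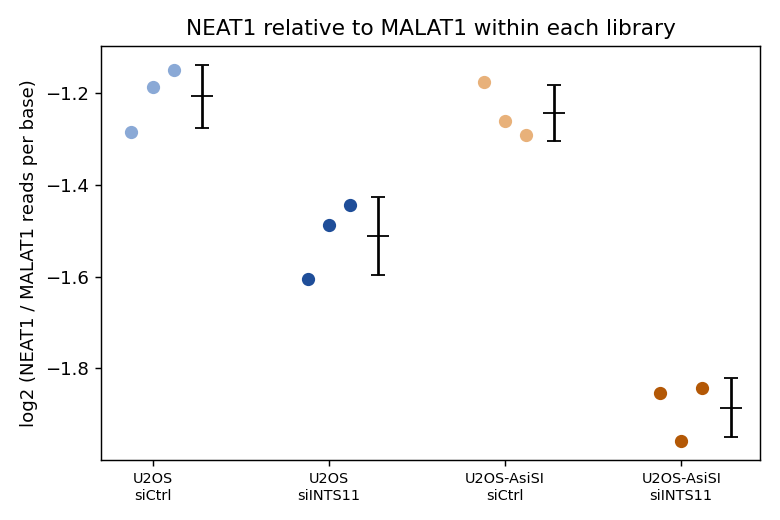
Log2 ratio of NEAT1 to MALAT1 reads per base (vertical axis) in each of the 12 libraries by group; black bars give the mean and SD of 3 libraries. All siINTS11 libraries lie below all siCtrl libraries. Those of U2OS-AsiSI, which also had the lowest totals, lie lowest.

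The second comparison was between the lines. Under siCtrl neither gene passed the test: the log2 difference of U2OS-AsiSI from U2OS was -0.04 for NEAT1 (SE 0.05, 95% interval -0.13 to 0.06, edgeR adjusted p = 0.602) and 0.00 for MALAT1 (SE 0.04, 95% interval -0.09 to 0.09, edgeR adjusted p = 0.997), where 34.9% of 19935 genes passed, 17.8% higher and 17.2% lower. Under siINTS11 NEAT1 was lower in U2OS-AsiSI by -0.23 (SE 0.05, edgeR adjusted p = 7.36e-05) and MALAT1 higher by 0.14 (SE 0.05, edgeR adjusted p = 0.0105), where 43.6% of 20802 genes passed, 22.2% higher and 21.4% lower. The MALAT1 call was lost without the second U2OS-AsiSI siINTS11 library (0.08, edgeR adjusted p = 0.174) and without the first U2OS siINTS11 library (0.12, edgeR adjusted p = 0.0618). Genes of MALAT1's density had a median of 0.30 there, above MALAT1, whereas 14 of the 1060 genes of NEAT1's density lay below NEAT1.

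The difference between the lines in the siINTS11 effect itself did not pass for either gene. The interaction was -0.23 for NEAT1 (SE 0.07, edgeR adjusted p = 0.0647) and 0.11 for MALAT1 (SE 0.07, edgeR adjusted p = 0.391), where 3.87% of 21521 genes passed, 0.762% higher and 3.1% lower. Without the first U2OS siINTS11 library the NEAT1 interaction was -0.29 and passed (edgeR adjusted p = 0.0366). A fall of NEAT1 in U2OS-AsiSI and not in U2OS is therefore not shown to be a difference between the lines.

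**Figure D4:**
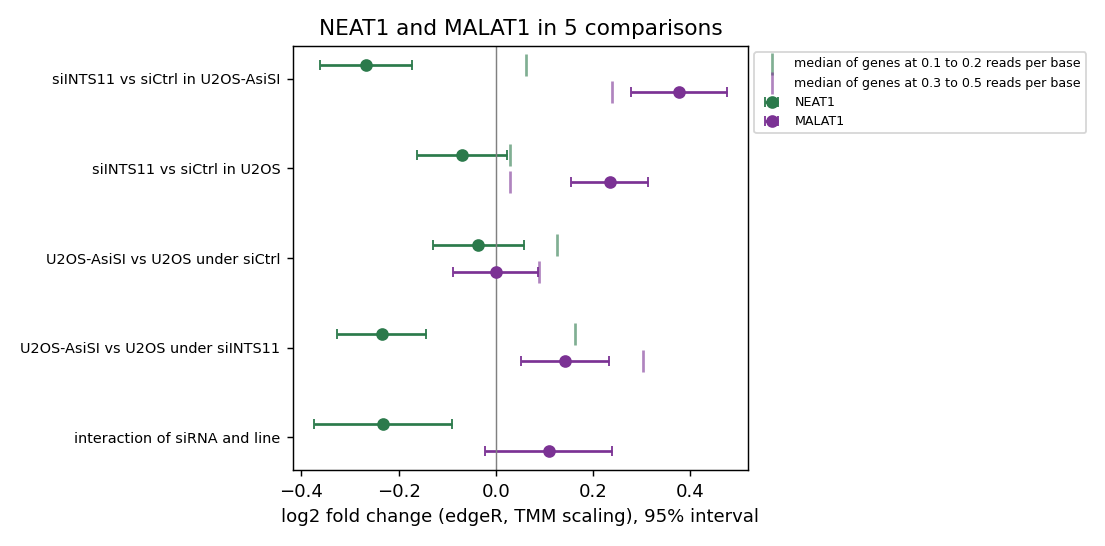
Log2 fold change (horizontal axis) of NEAT1 and MALAT1 in the 5 comparisons, with 95% intervals; vertical ticks mark the median of genes over 1 kb with similar reads per base in the first 4 comparisons. NEAT1 lies left of its tick in each, and MALAT1 lies right of its tick in the 2 siRNA comparisons and left of it in the 2 line comparisons.

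Genes around the pair were called about as often as genes in general, but more often higher. Within 250 kb there are 47 other genes, of which 29 passed the filter on low counts. In U2OS-AsiSI 16 of the 29 rose and 2 fell, with a median log2 fold change of 0.39 against 0.03 over all genes tested, and in U2OS 16 rose and 5 fell, with a median of 0.33 against 0.02. The 55.2% higher in each line compares with 35.4% of all genes tested in U2OS-AsiSI and 34.5% in U2OS, and the 6.9% and 17.2% lower with 32.6% and 32.4%; no test of the list was made. For the interaction 0 of the 29 passed in edgeR and 0 in DESeq2, and 7 had an unadjusted edgeR p under 0.05. With library totals alone 22 rose and 0 fell in U2OS-AsiSI, and 20 rose and 1 fell in U2OS.

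AP000769.1, listed 9.72 kb past the end of NEAT1 in the gap before MALAT1, had 113, 156 and 111 reads with siCtrl and 229, 224 and 222 with siINTS11 in U2OS. In U2OS-AsiSI it had 116, 117 and 125 reads with siCtrl and 185, 140 and 202 with siINTS11. It was higher in every siINTS11 library, by a log2 fold change of 0.74 in U2OS (edgeR adjusted p = 2.18e-08) and 0.70 in U2OS-AsiSI (edgeR adjusted p = 1.56e-06). FRMD8, 9.25 kb before NEAT1, rose by 0.58 in U2OS-AsiSI and 0.49 in U2OS.

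LTBP3, which binds latent TGF-beta, 32.3 kb past MALAT1, rose by 0.51 and 0.48 on the log2 scale in U2OS-AsiSI and U2OS. The mitochondrial carrier gene SLC25A45, 39.1 kb away, rose most of the 5 neighbours named, by 1.16 and 1.22. ZNRD2-AS1, an antisense gene 62.0 kb away whose span does not overlap that of ZNRD2, was 0.17 in U2OS-AsiSI. It did not pass there, and rose by 0.29 in U2OS. NEAT1 had a lower fold change than these 5 in both lines, but none of the 5 was called lower. Of the 29 neighbours tested, 2 were called lower in U2OS-AsiSI and 5 in U2OS, so NEAT1 was not alone in the region. DPF2, 68.5 kb away and named after its values were seen, averaged 55.6 CPM with siCtrl and 45.2 CPM with siINTS11 in U2OS-AsiSI (TMM-scaled). In U2OS its means were 49.4 and 44.7 CPM.

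**Figure D5:**
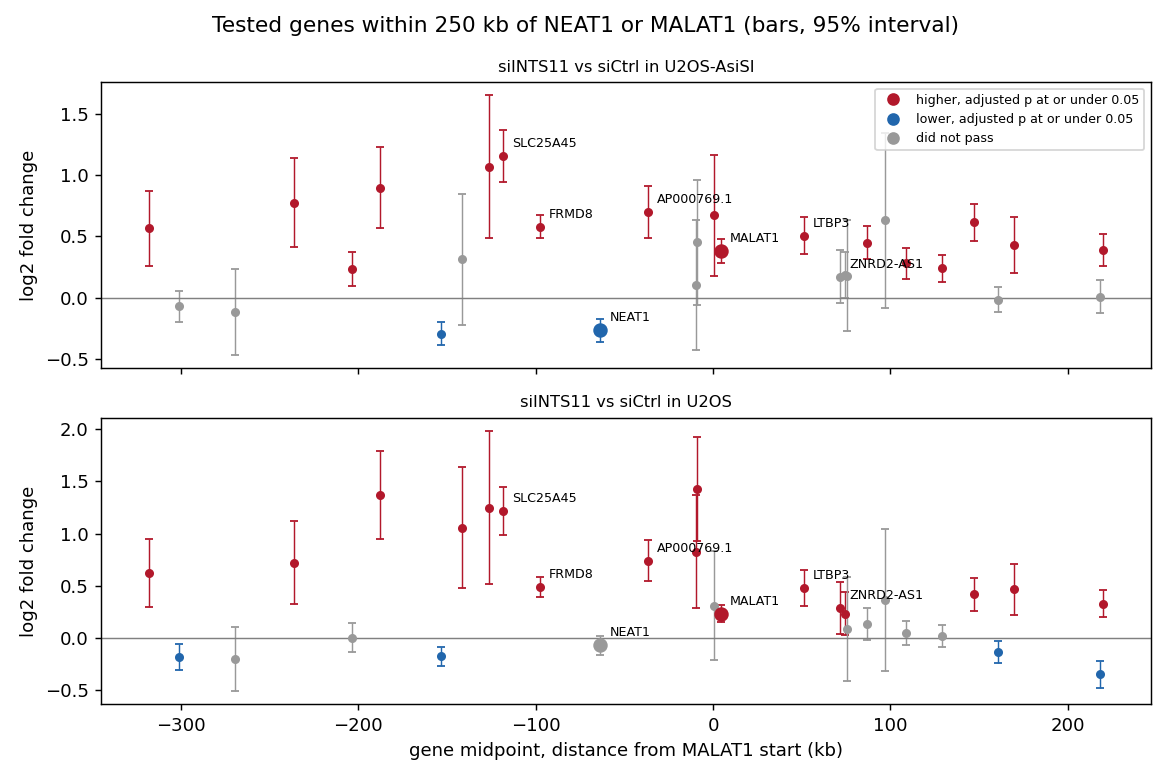
Log2 fold change with siINTS11 (vertical axes, bars give 95% intervals) of tested genes within 250 kb of the pair (1 is not shown), by distance of the gene midpoint from the MALAT1 start in kb, in U2OS-AsiSI (top) and U2OS (bottom). Most called genes are higher, 16 in each line. NEAT1 (-0.27 in U2OS-AsiSI and -0.07 in U2OS) lies below the neighbours' medians of 0.39 and 0.33. Of the 29 neighbours tested, including the 1 not shown, 2 and 5 were called lower.

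Genes whose RNA or protein acts with the pair were counted by list. Of 30 paraspeckle protein genes 26 were tested: 9 rose, 5 fell and 12 did not pass in U2OS-AsiSI (median log2 fold change 0.05), and 4 rose, 6 fell and 16 did not pass in U2OS (median -0.01). In U2OS-AsiSI that is 34.6% higher and 19.2% lower, against 35.4% and 32.6% of all genes, and in U2OS 15.4% and 23.1%, against 34.5% and 32.4%. FAM98A fell by 0.64 in U2OS-AsiSI and by 0.21 in U2OS, and TAF15, an RNA-binding protein of the FET family, fell by 0.48 and by 0.50. ZNF335, a zinc finger gene, rose by 0.38 in U2OS-AsiSI and was 0.05 in U2OS, where it did not pass. HNRNPF (0.05), EWSR1 (0.05) and HNRNPUL1 (0.01) did not pass in U2OS-AsiSI. RBM14, TARDBP, HNRNPA1 and RBM12, the 4 not tested, had from 0 to 6 reads in all 12 libraries together, although such genes are used by most cells. How reads over overlapping genes were counted is not given, and why these counts were so low was not tested. Of the core proteins, named after their values were seen, neither SFPQ (0.09 in U2OS-AsiSI, 0.04 in U2OS) nor NONO (-0.02 and -0.07) passed. With library totals alone 22 rose and 2 fell in U2OS-AsiSI, and 18 rose and 1 fell in U2OS, so these directions rest on the scaling.

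Of 7 factors that set the choice between short and long NEAT1, 6 were tested: 0 rose and 3 fell in U2OS-AsiSI, and 1 rose and 3 fell in U2OS. The 3 are 50% of those tested, against 32.6% of all genes lower in U2OS-AsiSI and 32.4% in U2OS. By library totals alone 3 rose and 1 fell in each line, so the balance of the list turns with the scaling. PCF11, a cleavage and termination factor, had 2645, 3365 and 2622 reads with siCtrl and 2439, 2375 and 2369 with siINTS11 in U2OS. In U2OS-AsiSI it had 2697, 2888 and 2639 with siCtrl and 2006, 1743 and 2003 with siINTS11. It fell by 0.37 on the log2 scale in U2OS-AsiSI and by 0.35 in U2OS, and it was also called lower with library totals alone (-0.18 and -0.15). CPSF6 (-0.21 and -0.13) and NUDT21 (-0.20 and -0.11) fell in both lines. They are 2 of the parts of CFIm, which favours the short isoform, and not the whole of it. Neither was called with library totals alone (-0.02 and 0.07 for CPSF6, -0.01 and 0.09 for NUDT21). CPSF7 (-0.05), HNRNPK (0.02), which opposes CFIm at NEAT1, and CSTF2 (0.04) did not pass in U2OS-AsiSI, and CSTF2 rose by 0.25 in U2OS. Scaled by library totals alone, these 3 were called higher in both lines (0.14, 0.21 and 0.23 in U2OS-AsiSI).

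A list of 15 genes covered the end processing of MALAT1 and its triple helix, and also held METTL3 and METTL14 of the m6A writer. Of these, 13 were tested: 5 rose, 3 fell and 5 did not pass in U2OS-AsiSI. In U2OS 6 rose, 3 fell and 4 did not pass. In U2OS-AsiSI 38.5% were higher and 23.1% lower, against 35.4% and 32.6% of all genes, and in U2OS 46.2% and 23.1%, against 34.5% and 32.4%. Of the RNase P subunits, RPP38 rose by 0.30 in U2OS-AsiSI and 0.38 in U2OS, and RPP30 fell by 0.23 and by 0.15. METTL14, the partner of METTL3 in the m6A writer, fell by 0.28 and by 0.21. METTL16, which binds the MALAT1 triple helix, was -0.08 in U2OS-AsiSI and did not pass, and rose by 0.09 in U2OS. METTL3 (-0.04) and RPP40 (-0.15) did not pass in U2OS-AsiSI, but rose by 0.20 and 0.39 in U2OS. Scaled by library totals alone, 7 rose and 0 fell in U2OS-AsiSI, and 10 rose and 0 fell in U2OS.

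Of 12 nuclear speckle scaffold genes 11 were tested: 1 rose and 3 fell in U2OS-AsiSI, and 1 rose and 5 fell in U2OS. The share lower was 27.3% in U2OS-AsiSI and 45.5% in U2OS, against 32.6% and 32.4% of all genes, and the share higher 9.09% in each, against 35.4% and 34.5%. NCOA5 fell by 0.63 in U2OS-AsiSI and by 0.49 in U2OS and was lower with library totals alone too (-0.44 and -0.29). THRAP3 (-0.24 and -0.18) and BCLAF1 (-0.21 and -0.20) fell, but not with library totals alone, where 8 of the 11 rose in U2OS-AsiSI and 7 in U2OS. SON (-0.07), ACIN1 (0.05) and SRRM2 (-0.04) did not pass in U2OS-AsiSI.

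Of 15 other non-coding RNAs listed for comparison, 14 were found and 7 tested in U2OS-AsiSI: 2 rose, 2 fell and 3 did not pass. In U2OS 8 were tested, of which 2 rose and 2 fell. Where in the cell these RNAs lie was not measured. That is 28.6% in each direction in U2OS-AsiSI and 25% in U2OS, under the shares of all genes (35.4% and 32.6%, and 34.5% and 32.4%). By library totals alone 4 rose and 0 fell in U2OS-AsiSI, and 4 rose and 1 fell in U2OS. KCNQ1OT1, the imprinted antisense RNA, rose by 0.26 in U2OS-AsiSI and 0.14 in U2OS, as MALAT1 did. MIAT fell by 0.33 and by 0.39, and PVT1 by 0.16 in each line. Scaled by library totals, PVT1 stood at 0.03 and 0.04 and MIAT at -0.14 and -0.20. TUG1 (-0.02), NORAD (0.12) and HOTAIR (-0.22) did not pass in U2OS-AsiSI, where library totals alone gave TUG1 0.17 and NORAD 0.31, both called higher.

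The genes most like each RNA in pattern were taken by Pearson's r of log2 TMM-scaled CPM over the 12 libraries, among 13556 genes with a mean of at least 100 counts, as a description. The libraries share their groups and depth, so high r values follow group means. For NEAT1 they were AC011912.1 (r = 0.96), FOXJ3 (0.96), WDR89 (0.95), PPM1D (0.95) and MRPS27 (0.94), all lower with siINTS11 in U2OS-AsiSI (log2 fold changes from -0.59 to -0.18) and not called in U2OS. For MALAT1 they were PKM (0.98), HM13 (0.98), TXNRD1 (0.97), RCC1 (0.97) and FTL (0.97), all higher in both lines (0.20 to 0.53 in U2OS-AsiSI and 0.11 to 0.41 in U2OS). None of the 10 lies on chromosome 11, and NEAT1 and MALAT1 had r = -0.55 with each other.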

How the data were processed

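TT-seq of nascent RNA gave 12 libraries, put into groups by the line and siRNA in their titles. Yeast RNA labelled with 4-thiouracil was added before fragmentation, biotinylation and capture, and libraries were directional, per the labels' protocols. The deposited files hold raw read counts per gene with gene coordinates and length, and 0 count columns were left without a sample. The submitters' processing notes name Trimmomatic 0.36, STAR 2.7, deepTools, featureCounts and hg38, with no settings. Whether counting used strand or dropped duplicate reads is not given in the sources used here. Reads of genes that overlap on opposite strands may therefore not be separated. AP000769.2, on the minus strand inside the MALAT1 span, had 248 reads, while same-strand genes inside the spans had 0. What this says of the strand setting was not tested. Yeast counts were not used here, and global shifts in transcription were not analysed here.

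Counts were tested in R 4.3.3 with edgeR 4.0.16 (filterByExpr, TMM, robust glmQLFit, glmQLFTest, two-sided) on the 6 libraries compared, or all 12 for the interaction, with Benjamini-Hochberg adjustment over all genes tested and a threshold of 0.05. Each SE is the size of the log2 fold change divided by the root of its F statistic. Reads per base and their ratio were compared by exact permutation over libraries. Alternatives were DESeq2 1.42.0, other scalings and filters, thinning to the smallest total, a replicate block and leaving out each library. The fits were tested on simulated data. Depth was 20704611 to 38065726 counts per library, and without molecular identifiers reads may repeat a molecule, so intervals cover only the spread between libraries. Replicates differed by more than sampling noise in all 4 groups (chi-square per degree of freedom 2.11 to 3.10).

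The members, lists and tests were chosen with earlier results of these data known. Named genes are, per list, up to 3 with the smallest adjusted p in U2OS-AsiSI and up to 3 that did not pass with the highest counts. They also include the nearest 6 neighbours with a mean of at least 50 counts, of which 1 is not reported here, the 5 genes most like each member in pattern, and the 5 genes of at least 5 kb nearest each in reads per base. The liver marker ALB was at most 0.101 CPM. Promoter windows were matched for 1 of the 2 members. No promoter is described for NEAT1.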

Additional observations from a re-analysis of the deposited data

Results flagged for a closer look

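The effect of siINTS11 differed between the lines for 8 of the genes named or listed with NEAT1 and MALAT1, by edgeR's interaction test over all 12 libraries at an adjusted p of 0.05. These are 7.14% of the 112 such genes tested, where 3.87% of all 21521 genes tested passed. Values are the log2 change in U2OS-AsiSI minus that in U2OS. Among the paraspeckle protein genes the interaction was 0.29 for ZNF335, 0.25 for AHDC1 and -0.47 for FAM98A. In the list for MALAT1 end processing and its triple helix it was -0.57 for the RNase P subunit gene RPP40 and -0.20 for METTL16. METTL3, of the m6A writer and held in the same list, had -0.28. AC011912.1 had -0.56, but it was picked for following NEAT1 over the same libraries, so its call is not independent of that choice. ITPRIP, a gene of NEAT1's density, had 0.31.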

How the results depend on the processing

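MALAT1 kept its rise with siINTS11 and its call in both lines under all 14 alternatives with a test, from 0.31 to 0.57 on the log2 scale in U2OS-AsiSI and from 0.21 to 0.43 in U2OS. NEAT1 in U2OS-AsiSI ran from -0.31 to -0.0766 over the same 14 and lost its call with library totals alone (edgeR adjusted p = 0.109), which in U2OS turned it to 0.13 (edgeR adjusted p = 0.00495). In the line comparison under siCtrl, library totals alone gave NEAT1 0.0214, and MALAT1, near 0 throughout, was -0.00934 with median-of-ratios factors, -0.0094 in DESeq2 and -0.00859 after thinning. Leaving out 1 library gave -0.0850 to 0.0193 for NEAT1 (0.0193 without U2OS siCtrl replicate 3, 0.00384 without U2OS-AsiSI siCtrl replicate 2) and -0.0305 to 0.0307 for MALAT1 (-0.0305 without U2OS siCtrl replicate 2, -0.0139 without U2OS-AsiSI siCtrl replicate 1 and -0.0150 without its replicate 3). Under siINTS11, MALAT1 between lines ran from 0.0785 to 0.18 with 1 library left out. The NEAT1 interaction ran from -0.29 to -0.18.

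After seeing the data, the median of genes of like density was subtracted from each fold change, a value with no test. NEAT1 was then -0.33 in U2OS-AsiSI, -0.16 between lines under siCtrl and -0.40 under siINTS11. MALAT1 was 0.14 in U2OS-AsiSI, and -0.0895 and -0.16 between lines, reversed from a value near 0 and from a call.

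Genes called for the interaction numbered 832 and became 447 with median-of-ratios factors, 423 in DESeq2, 530 after thinning, and 286 to 946 with 1 library left out. NEAT1 reads per base within lines became 0.00294 per library total (exact permutation p = 0.565) and -0.0147 per effective library size (exact permutation p = 0.035), and ran from -0.0221 (without U2OS siCtrl replicate 1, exact permutation p = 0.025) to -0.0124 with 1 library left out; for MALAT1 the range was 0.0680 to 0.0847. Of 912 alternative counts over the lists, 131 moved by over 1.5 times. The causes were not tested.

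Whether replicate numbers pair the libraries is not settled by these data. In U2OS-AsiSI the deviations of same-numbered libraries from their group means correlated by 0.14, 0.01 and 0.02. Those of differently numbered libraries correlated by -0.099 to 0.079. With the replicate block NEAT1 was -0.27 and MALAT1 0.38 in U2OS-AsiSI, no call of the pair changed, and 531 genes were called for the interaction.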
